A study of Mus musculus with 10 samples.

Results

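Cells leave the G1 phase of the cell cycle when D-type cyclins, bound to the kinases CDK4 or CDK6, phosphorylate the retinoblastoma protein and free E2F transcription factors. The transcripts of 10 genes that set this step were compared between the cell layers of the mouse mammary duct. They were the D cyclins Ccnd1, Ccnd2 and Ccnd3, the kinases Cdk4 and Cdk6, the CIP/KIP inhibitors Cdkn1a (p21) and Cdkn1b (p27), and the INK4 genes Cdkn2a (p16, and from another reading frame the p53 activator p19Arf, which is no CDK inhibitor), Cdkn2b (p15) and Cdkn2c (p18). All 10 genes were chosen by name, by their role in this step, and were found among the 24594 genes of the raw count table.

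The count table held 10 RNA-seq libraries of wild type C57BL/6J mice, 5 of luminal and 5 of basal cells. The cells were freshly sorted from the virgin gland by flow cytometry on the surface proteins EpCAM and CD49f. No group carried a transgene or received a treatment, and the labels give no age. The study's methods state an age range, in weeks, for its mice in general. Luminal cells line the duct lumen and basal cells form the contractile outer layer, and the luminal gate took progenitor and mature luminal cells together. The comparison asked which genes differ in expression between the 2 layers. Library totals ranged from 13203146 to 17998165 counts, and a single count was worth 0.0527 to 0.0774 CPM (counts scaled to a common library size with TMM factors). For each of the 10 libraries the title and the cell type label disagree. Groups follow the label, which the source name also gives, and all 16 lineage markers followed it, with 9 of 9 luminal markers higher in luminal and 7 of 7 basal markers higher in basal libraries.

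Markers of other cells were measured as well. Summed over the lists, endothelial markers (2 of 4 tested, 1 called, higher in basal) reached 1.58 to 4.06 CPM in luminal and 6.27 to 13.7 CPM in basal libraries. Immune markers (3 of 5 tested, 2 called higher in luminal and 1 in basal) reached 4.13 to 11.3 and 12.2 to 34.4 CPM, with Cd3e at 0 in every library. The basal sum came mainly from Cd74, at 11.6 to 30.5 CPM in basal and 1.00 to 3.74 CPM in luminal libraries. Cd52 and Lyz2 were the genes called higher in luminal cells. Fibroblast markers (4 of 4 tested, 1 called higher in luminal and 2 in basal) reached 15.1 to 103 and 29.9 to 42.2 CPM, the former mainly from Dcn, at 11.6 to 95.1 CPM in luminal and 10.5 to 14.3 CPM in basal libraries. Adipocyte markers (1 of 4 tested and called, higher in basal) reached 0.611 to 1.59 and 3.95 to 8.88 CPM, with Adipoq at 0 in every library, and erythroid markers (2 of 3 tested, 1 called, higher in luminal) reached 4.74 to 18.3 and 0.546 to 2.28 CPM. For its sorts the study also describes staining for CD45 (white blood cells), CD31 (endothelium) and TER-119 (erythroid cells). The part of these cells in the results was not tested. In sorted bulk samples, fewer cells that express a gene and less RNA per cell cannot be told apart.

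D cyclins are the short-lived, signal-responsive partners of CDK4 and CDK6, and most tissues express more than one of them. Cyclin D1 is known for its requirement in the lobuloalveolar growth of the mammary gland in pregnancy. CIP/KIP proteins act on several cyclin-CDK complexes, whereas INK4 proteins bind only CDK4 and CDK6 and compete with the D cyclins for them.

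Of the 10 genes, 9 passed the filter on low counts and 7 differed between luminal and basal cells at an adjusted p under 0.05 (edgeR's quasi-likelihood test, Benjamini-Hochberg adjustment over 14609 genes). That is 77.8% of those tested. Among all tested genes the same call was made for 64.8%, so a difference between these cell types is the common case. Ccnd1, Ccnd3, Cdk6 and Cdkn2b were higher in luminal cells, a direction called for 33.6% of all tested genes. Ccnd2, Cdk4 and Cdkn1a were higher in basal cells, a direction called for 31.2%. Cdkn1b and Cdkn2c did not pass the test, and Cdkn2a was too low to be tested. The median size of the log2 fold change was 0.91 over the 9 genes and 0.81 over all tested genes. The luminal and basal values did not overlap for 5 of the 9 genes, Ccnd1, Ccnd2, Ccnd3, Cdkn1a and Cdkn2b, beside 50.1% of all tested genes.

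**Figure D1:**
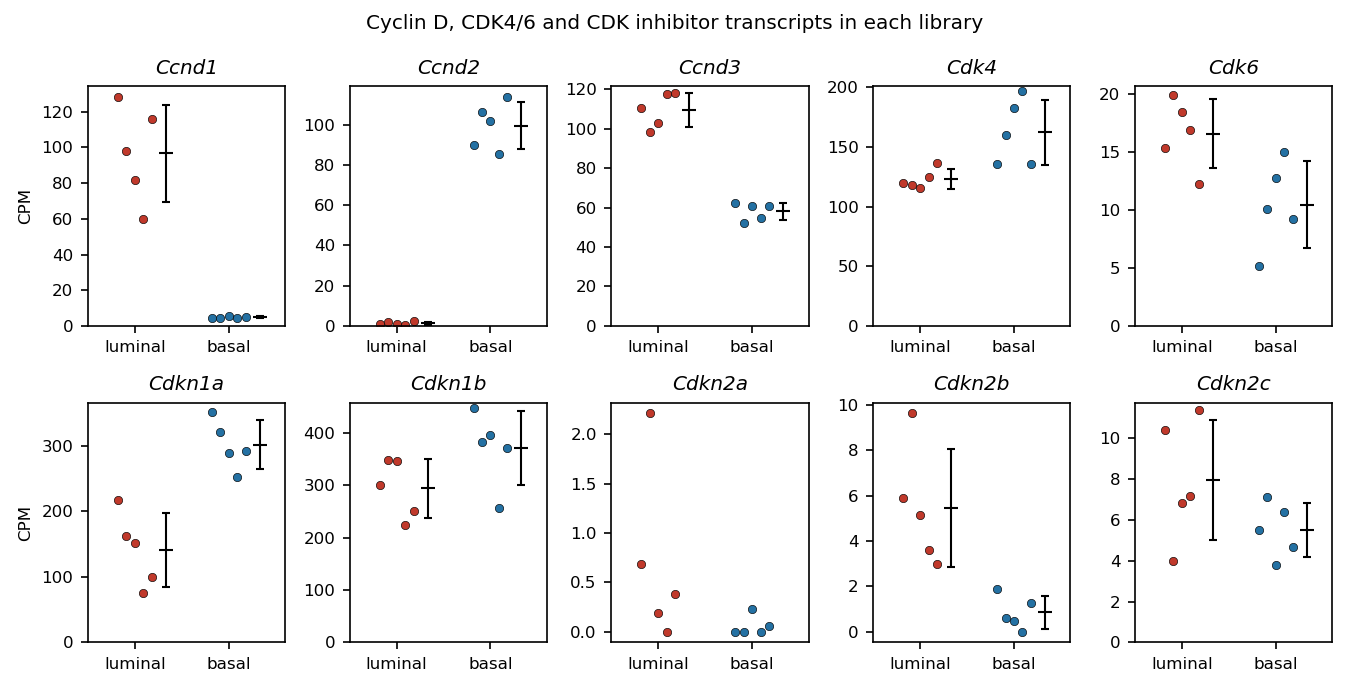
Expression in CPM (linear axis, a separate scale per gene) of each of the 10 genes in the 5 luminal (red) and 5 basal (blue) libraries, in the order of their replicate numbers, with the mean and SD as a bar beside the points. Ccnd1 lay between 59.9 and 128 CPM in luminal and between 4.43 and 5.42 CPM in basal libraries, and Ccnd2 showed the opposite order. No mean is drawn for Cdkn2a, which was at 0 in 4 libraries.

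Ccnd1 and Ccnd2 showed the largest differences of the 9 tested genes, in opposite directions. Ccnd1 (Entrez 12443, chromosome 7, 144929931 to 144939831, minus strand, GRCm38) was 20.2-fold higher in luminal cells. Luminal libraries 1 to 5 held 128, 97.9, 81.7, 59.9 and 116 CPM, and basal libraries 1 to 5 held 4.43, 4.43, 5.42, 4.501 and 5.21 CPM. Every luminal library exceeded every basal library, and the luminal values spread more widely than the basal ones. Mean levels were 96.8 ± 27.2 and 4.80 ± 0.478 CPM (SD, n = 5 each), a log2 fold change of 4.33 (SE 0.22, edgeR adjusted p = 7.76e-10).

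Ccnd2 (Entrez 12444, chromosome 6, 127125162 to 127152188, minus strand) was 72.3-fold higher in basal cells. It stood at 0.876, 2.16, 0.859, 0.458 and 2.35 CPM in luminal libraries 1 to 5, from 6 to 41 counts each, and basal libraries 1 to 5 held 90.1, 107, 102, 85.7 and 114 CPM. The groups lay far apart, and the luminal values, resting on few counts, differed among themselves by several fold. With means of 1.34 ± 0.853 and 99.6 ± 11.6 CPM (SD, n = 5 each), the log2 fold change was −6.18 (SE 0.33, edgeR adjusted p = 1.70e-09).

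Ccnd3 (Entrez 12445, chromosome 17, 47505051 to 47599689, plus strand) was abundant in both layers and 1.88-fold higher in luminal cells. Its values in luminal libraries 1 to 5 were 110, 98.2, 103, 118 and 118 CPM, and basal libraries 1 to 5 held 62.2, 52.4, 60.7, 54.9 and 60.7 CPM. The groups did not overlap and both were tight, with SDs of 8.83 and 4.27 CPM around means of 109 and 58.2 CPM (n = 5 each). This is a log2 fold change of 0.91 (SE 0.12, edgeR adjusted p = 9.53e-06).

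Scaled to exon length, the 3 D cyclins together summed to 33.2 ± 5.87 CPM per kb in the luminal and 18.2 ± 1.42 CPM per kb in the basal libraries (SD, n = 5 each), a ratio of 1.82, with ranges of 26.2 to 39.9 and 16.3 to 20.1 that did not overlap. With coding length the ratio was 1.26 and the ranges, 203 to 272 and 167 to 206 CPM per kb, overlapped. Of this sum Ccnd1 made up 61.0 ± 7.61% (SD, n = 5) in luminal and 5.59 ± 0.375% in basal libraries. Ccnd2 made up 0.419 ± 0.245% in luminal and 57.9 ± 3.14% in basal libraries. Ccnd3 made up 38.6 ± 7.73% and 36.5 ± 3.01% on this scale, with ranges of 31.5 to 51.2% and 32.7 to 40.3%. In luminal library 4, Ccnd1 fell to 48.6% and Ccnd3, at 51.2%, was the larger part. These shares depend on the length used. With coding length in place of exon length, Ccnd3 held the larger luminal share, 53.7%, and Ccnd1 45.7%, while in basal libraries Ccnd2 held 61.4% and Ccnd3 35.7%, so the Ccnd3 share then differed between the layers.

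**Figure D2:**
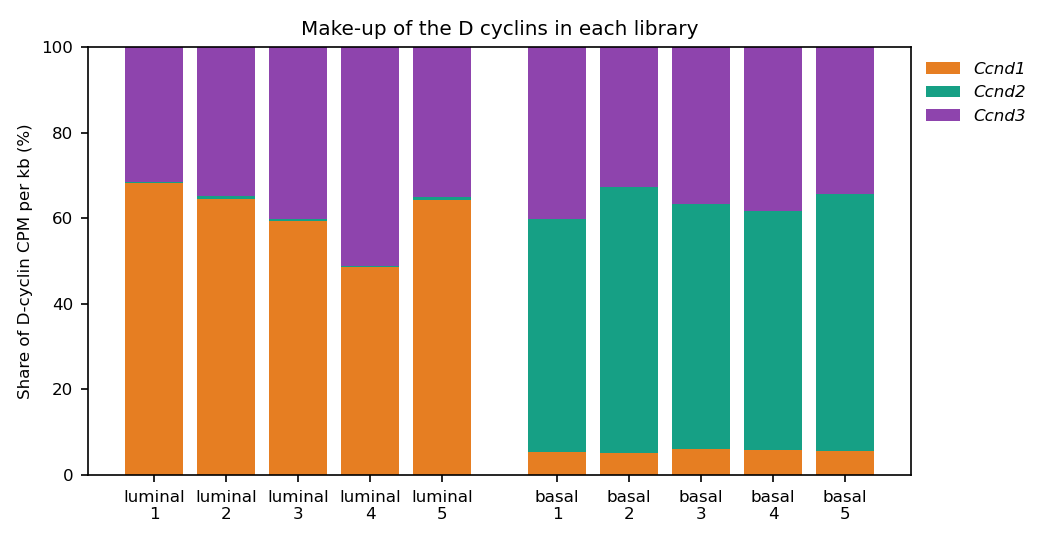
Share of the summed D-cyclin level (CPM per kb of exon, in percent) that came from Ccnd1, Ccnd2 and Ccnd3 in each of the 10 libraries, as stacked bars that add up to 100%. Ccnd1 took 48.6 to 68.2% of the luminal bars, Ccnd2 54.4 to 62.1% of the basal bars, and Ccnd3 31.5 to 51.2% of all bars.

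Ccnd1 and Ccnd2 were also set against the markers of the other layer. The luminal libraries held Ccnd2 at 0.460 to 2.36% of its basal mean, and held the 7 basal markers at 0.0259 to 1.10% of theirs. In luminal libraries 1, 2, 3 and 5 Ccnd2 lay at 0.879, 2.17, 0.862 and 2.36%, above each of the 7 basal markers in the same library, whereas in library 4, at 0.460%, it lay below Krt5 at 1.05% and Krt14 at 0.477%. The basal libraries held Ccnd1 at 4.57 to 5.60% of its luminal mean, within the 0 to 26.7% of the 9 luminal markers, which ranged from 0.00524 to 0.184% for Prlr and 0 to 0.542% for Elf5 to 18.3 to 26.7% for Krt8.

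The library kit does not record strand, and neighbouring genes on the opposite strand share exon sequence with several of the 10 genes. LTO1, on the opposite strand, overlaps 1100 of the 4709 exon bases of Ccnd1 (23.4%) and was itself higher in luminal cells, at 65.7 ± 13.9 against 7.89 ± 1.90 CPM (SD, n = 5 each), a log2 fold change of 3.06 (SE 0.21). Reads from the shared stretch cannot be assigned to either gene, and their part in the difference was not tested. The antisense gene 9330179D12Rik overlaps 368 of the 9409 exon bases of Ccnd2 (3.91%) and had a log2 fold change of −0.16 (SE 0.14, edgeR adjusted p = 0.327). It was at 220 ± 32.8 CPM in luminal and 245 ± 23.6 CPM in basal libraries (SD, n = 5 each). This is far above the 1.34 CPM of Ccnd2 in luminal libraries. The part of shared reads in the low luminal Ccnd2 level, and so in its fold change, was not tested. Gm43126 overlaps 372 bases of Ccnd2 (3.95%), Bysl 361 bases of Ccnd3 (4.11%, log2 fold change −0.06), Gm17590 368 bases of Cdk6 (2.63%) and AC167363.2 273 bases of Cdkn1a (7.68%). A processed pseudogene, Ccnd3-ps, exists for Ccnd3.

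The genes whose pattern over the 10 libraries was most like that of Ccnd1, by Pearson correlation of log2(CPM + 1), were Tbcd, Scara5 and Cldn8 (r = 0.999, 0.998 and 0.998). Those most like Ccnd2 were Ltbp4, Lrp1 and Trp63 (r = 0.999, 0.997 and 0.997), of which Trp63 encodes the basal lineage factor p63. Those most like Ccnd3 were Cdon, Ptprj and Glt28d2 (r = 0.994, 0.991 and 0.991). These correlations describe mainly the step between the cell types, since 1898, 2258 and 1632 of the 12200 genes compared exceeded 0.9 with Ccnd1, Ccnd2 and Ccnd3.

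CDK4 and CDK6, the kinase partners of the D cyclins, differed less than the cyclins and in opposite directions. Cdk4 (Entrez 12567, chromosome 10, 127063535 to 127067288, plus strand) was 1.32-fold higher in basal cells. Luminal libraries 1 to 5 held 120, 118, 115, 125 and 136 CPM, and basal libraries 1 to 5 held 136, 160, 182, 197 and 136 CPM. Only 3 of the 5 basal libraries exceeded every luminal one, and basal libraries 1 and 5 lay just under luminal library 5. With means of 123 ± 8.31 and 162 ± 27.4 CPM (SD, n = 5 each), its log2 fold change was −0.40 (SE 0.14, edgeR adjusted p = 0.0187). The call was lost without basal library 3 (adjusted p = 0.0511), with upper-quartile factors (0.0878) and with library totals (0.197), under which the direction remained.

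Cdk6 (Entrez 12571, chromosome 5, 3341004 to 3531008, plus strand) was 1.58-fold higher in luminal cells. The 5 luminal libraries, by number, held 15.3, 19.9, 18.4, 16.9 and 12.2 CPM, and basal libraries 1 to 5 held 5.18, 10.03, 12.8, 15.0 and 9.23 CPM. The groups overlapped, since luminal library 5 lay below basal libraries 3 and 4. The log2 fold change was 0.66 (SE 0.25, edgeR adjusted p = 0.0321), with means of 16.5 ± 2.98 and 10.4 ± 3.73 CPM (SD, n = 5 each). Leaving out any one of luminal libraries 2 and 3 and basal libraries 1, 2 and 5 ended the call, with adjusted p-values of 0.0631 to 0.0709 and log2 fold changes of 0.48 to 0.64. So did a fit with no filter (0.60, adjusted p = 0.0519).

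Per exon length, Cdk4 made up 96.9 ± 0.681% (SD, n = 5) of the level of both kinases in luminal and 98.6 ± 0.334% in basal libraries. The ranges, 96.2 to 98.0% and 98.3 to 99.1%, did not overlap, and Cdk6 was the small remainder in both layers. With coding length the shares of Cdk4 were 88.8 and 94.5%. Tspan31, on the opposite strand, shares 641 of the 3249 exon bases of Cdk4 (19.7%) and was higher in basal cells as well, at 131 ± 18.9 CPM against 70.0 ± 8.37 CPM (SD, n = 5 each), a log2 fold change of −0.91 (SE 0.14). The part of these shared reads in the Cdk4 difference was not tested.

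The promoter window of Cdk4, 250 bases before to 50 bases after its start, is shown because it holds the E-box letters CACGTG several times. The window holds 4 matches, in capitals, which begin 172, 118, 98 and 11 bases before the start. Of all 32851 promoter windows of the RefSeq table, 7.15% hold at least 1. The windows of Cdk6 and of the downstream start of Cdkn2c, genes not higher in basal cells, hold 1 match each. The letters read the same on both strands, and a match is a description of the sequence only.
Cdk4, GRCm38.p6, chr10:127063285-127063584, plus strand: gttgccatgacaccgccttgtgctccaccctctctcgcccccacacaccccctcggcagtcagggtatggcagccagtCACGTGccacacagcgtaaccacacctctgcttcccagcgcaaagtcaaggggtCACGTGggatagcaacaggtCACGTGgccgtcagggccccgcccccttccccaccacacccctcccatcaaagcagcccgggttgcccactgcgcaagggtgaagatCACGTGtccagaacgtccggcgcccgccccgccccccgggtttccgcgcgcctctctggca

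Per exon length, Cdkn1a and Cdkn1b had the highest mean levels of the 10 genes in both layers. Cdkn1a reached 39.7 ± 15.8 CPM per kb in luminal cells and 84.7 ± 10.5 in basal cells, Cdkn1b 64.6 ± 12.3 and 81.4 ± 15.4, and the next gene, Cdk4, 37.8 ± 2.56 and 49.9 ± 8.44 (SD, n = 5 each), so that Cdkn1a and Cdk4 lay within their spread of each other in luminal cells. Cdkn1a (Entrez 12575, chromosome 17, 29090979 to 29100722, plus strand), which encodes the p53 target p21, was 2.13-fold higher in basal cells. In luminal libraries 1 to 5 its level was 217, 162, 152, 74.6 and 99.1 CPM, and basal libraries 1 to 5 held 352, 321, 289, 252 and 291 CPM. Every basal library exceeded every luminal one, and luminal libraries 4 and 5 were the lowest. Means of 141 ± 56.0 and 301 ± 37.3 CPM (SD, n = 5 each) gave a log2 fold change of −1.09 (SE 0.24, edgeR adjusted p = 0.00107).

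The 8 immediate-early genes of a dissociation stress list, Fos, Fosb, Jun, Junb, Egr1, Atf3, Ier2 and Dusp1, were also all higher in basal cells, with a median log2 fold change of −0.99. Their summed level was 2043 to 2817 CPM in luminal and 3645 to 6183 CPM in basal libraries. The part of the stress response in the Cdkn1a difference was not tested.

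RefSeq gives Cdkn1a 2 start sites, and both windows are shown because they differ in the letters they hold. The window of the upstream start holds 1 match to CATGNNNNNNCATG, a pair of CATG cores as found in p53 response elements, which begins 48 bases before the start and is in capitals. Only 0.712% of all promoter windows hold this pattern, which reads the same on both strands. The window of the downstream start holds none of it and 2 matches to GGGCGG, the core letters of a GC box, on the printed strand (capitals, 104 and 46 bases before the start). GGGCGG or its reverse complement occurs in 35.7% of all windows.
Cdkn1a, upstream start, GRCm38.p6, chr17:29090729-29091028, plus strand: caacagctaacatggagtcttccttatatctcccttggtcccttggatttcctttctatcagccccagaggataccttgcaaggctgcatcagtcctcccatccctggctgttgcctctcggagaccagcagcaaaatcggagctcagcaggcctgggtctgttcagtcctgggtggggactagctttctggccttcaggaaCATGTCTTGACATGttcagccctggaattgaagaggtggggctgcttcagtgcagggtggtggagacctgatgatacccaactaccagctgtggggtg
Cdkn1a, downstream start, GRCm38.p6, chr17:29093519-29093818, plus strand: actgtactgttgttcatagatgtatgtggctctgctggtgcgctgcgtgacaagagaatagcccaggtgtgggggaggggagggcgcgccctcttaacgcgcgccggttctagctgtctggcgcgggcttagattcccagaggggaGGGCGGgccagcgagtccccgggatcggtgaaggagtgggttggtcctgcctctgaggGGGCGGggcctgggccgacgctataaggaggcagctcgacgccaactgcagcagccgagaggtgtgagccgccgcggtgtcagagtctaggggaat

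Cdkn1b (Entrez 12576, chromosome 6, 134920401 to 134925525, plus strand), which encodes p27, did not pass the test. Luminal libraries 1 to 5 held 301, 348, 347, 224 and 250 CPM, and basal libraries 1 to 5 held 447, 383, 396, 256 and 372 CPM. All basal libraries but the fourth exceeded every luminal one, and library 4 was the lowest of both groups. The log2 fold change was −0.33 (SE 0.18, edgeR adjusted p = 0.114), with means of 294 ± 56.0 and 371 ± 70.3 CPM (SD, n = 5 each). Without basal library 4 the log2 fold change was −0.45 and the adjusted p was 0.0272.

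Per exon length, both inhibitors together reached 104 ± 25.9 CPM per kb in luminal and 166 ± 25.3 CPM per kb in basal libraries (SD, n = 5 each). Their balance differed, as Cdkn1a made up 37.0 ± 6.80% in luminal (29.9 to 48.1%) and 51.2 ± 2.83% in basal libraries (48.4 to 55.8%). Cdkn1b was the larger part in every luminal library.

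Cdkn2a, Cdkn2b and Cdkn2c, whose products p16, p15 and p18 act on CDK4 and CDK6 alone, were at most 11.4 CPM in any library. The fourth INK4 gene, Cdkn2d, is given below with the other inhibitors. Cdkn2b (Entrez 12579, chromosome 4, 89306289 to 89311032, minus strand) was 6.38-fold higher in luminal cells. Luminal libraries 1 to 5 held 5.88, 9.64, 5.15, 3.59 and 2.98 CPM, and basal libraries 1 to 5 held 1.87, 0.614, 0.464, 0 and 1.26 CPM. The lowest luminal library exceeded the highest basal one, and basal library 4 had no count. The log2 fold change was 2.67 (SE 0.63, edgeR adjusted p = 0.00198), with means of 5.45 ± 2.62 and 0.842 ± 0.731 CPM (SD, n = 5 each). With voom the log2 fold change was 3.44.

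Cdkn2c (Entrez 12580, chromosome 4, 109660876 to 109666756, minus strand) did not pass the test. It stood at 10.4, 4.003, 6.81, 7.18 and 11.4 CPM in luminal libraries 1 to 5, and basal libraries 1 to 5 held 5.49, 7.10, 3.79, 6.38 and 4.68 CPM. The groups overlapped widely, with luminal library 2 near the lowest basal value. The log2 fold change was 0.53 (SE 0.29, edgeR adjusted p = 0.126), and it was 0.72 with an adjusted p of 0.0278 without luminal library 2.

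Cdkn2a (Entrez 12578, chromosome 4, 89274473 to 89294619, minus strand) was at the limit of detection. Luminal libraries 1 to 5 held 11, 42, 3, 0 and 6 counts, and basal libraries 1 to 5 held 0, 0, 3, 0 and 1. Most luminal counts came from library 2, and the gene was dropped by the filter. In a fit with no filter its log2 fold change was 3.43 (SE 1.21, edgeR adjusted p = 0.0264). Its transcripts p16 and p19Arf share exons and were not told apart. Summed per exon length, these 3 INK4 genes reached 7.47 ± 2.01 CPM per kb in luminal and 2.70 ± 0.570 CPM per kb in basal libraries (SD, n = 5 each), a sum that leaves out Cdkn2d, which was higher in basal cells. Cdkn2b made up 51.0 ± 13.04% of this in luminal and 21.0 ± 15.9% in basal libraries, and Cdkn2c 42.5 ± 17.99% and 76.6 ± 16.3%. With coding length the luminal order turned, to 44.0% for Cdkn2b and 52.1% for Cdkn2c.

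**Figure D3:**
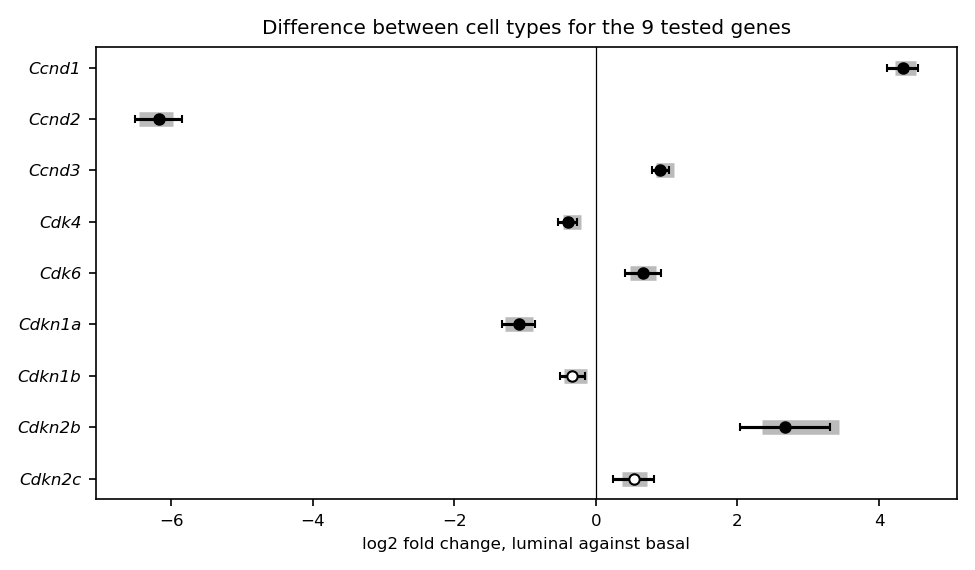
Log2 fold change, luminal against basal, of the 9 tested genes, with its SE as the error bar (filled points, edgeR adjusted p under 0.05, and open points, not called). The grey bands span the values over all alternative settings and left-out libraries. The values ran from −6.18 for Ccnd2 to 4.33 for Ccnd1, and no grey band crossed 0.

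The other genes of the pathway were counted over lists by role, 64 genes in all. Of these, 57 were tested, 15 were higher in luminal cells, 20 were higher in basal cells and 22 were not called. Over all tested genes 64.8% were called, 33.6% in the luminal and 31.2% in the basal direction, so the lists below are descriptions and none was set apart by a test. The median log2 fold change of these 57 genes was −0.21 beside 0.05 over all tested genes. The cyclins E and A with their partners had 4 tested genes, of which 3 were higher in basal and 1 in luminal cells (median −1.01). Ccne2, a cyclin E, was at 3.20 ± 0.895 CPM in luminal and 12.4 ± 3.11 CPM in basal libraries (SD, n = 5 each, log2 fold change −1.96, edgeR adjusted p = 1.64e-05). Cdc25a, a phosphatase that activates CDKs, was higher in basal cells as well (log2 fold change −1.27), while Ccna2, cyclin A, was higher in luminal cells (1.05).

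Among the RB and E2F families, 2 of 10 tested genes passed in the luminal and 5 in the basal direction (median −0.49). Rb1, the retinoblastoma protein itself, was at 70.1 ± 6.70 CPM in luminal and 44.9 ± 4.67 CPM in basal libraries (SD, n = 5 each, log2 fold change 0.64, edgeR adjusted p = 0.000492). Its relative Rbl1 (p107) was likewise higher in luminal cells (log2 fold change 0.89). E2f1, an activator, and E2f6, a repressor, were higher in basal cells (log2 fold changes −2.66 and −1.21), E2f1 from only 1.13 ± 1.36 CPM to 7.40 ± 2.31 CPM (SD, n = 5 each). Without luminal library 2 the log2 fold change of E2f1 was −3.66, and with voom it was −3.58.

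The CDK-activating kinase, which phosphorylates CDK4 and CDK6, showed its subunits apart. Mnat1, the assembly factor, was higher in luminal cells (log2 fold change 1.85), the kinase Cdk7 was higher in basal cells (−0.96), and the third gene of this list, the cyclin Ccnh, was not called (−0.05). Of 6 genes for the turnover of cyclin D and p27, 1 passed in the luminal and 2 in the basal direction (median −0.39). Fbxo31, part of a ubiquitin ligase for cyclin D1, was at 51.4 ± 20.4 CPM in luminal and 14.0 ± 3.92 CPM in basal libraries (SD, n = 5 each, log2 fold change 1.88). Gsk3b, a kinase that marks cyclin D1 for degradation, was higher in basal cells (−1.47), as was Cks1b, a cofactor of p27 breakdown (−0.62), whose call was lost without luminal library 2, basal library 3 or basal library 4 (edgeR adjusted p = 0.0538, 0.051 and 0.0612) and with upper-quartile factors or library totals.

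Of 9 regulators of the inhibitors, 2 passed in the luminal and 5 in the basal direction (median −0.60). Myc, a repressor of Cdkn1a and Cdkn2b and an activator of Cdk4 and Ccnd2 in other systems, was at 50.6 ± 9.38 CPM in luminal and 357 ± 65.2 CPM in basal libraries (SD, n = 5 each, log2 fold change −2.82, edgeR adjusted p = 8.77e-09). Trp53, which encodes p53, was at 46.4 ± 3.55 CPM in luminal and 110 ± 10.5 CPM in basal libraries (SD, n = 5 each, log2 fold change −1.24, edgeR adjusted p = 6.13e-07). The Polycomb genes Bmi1 and Cbx7, which silence the Cdkn2a locus, were higher in luminal cells (log2 fold changes 0.98 and 0.63), and Ezh2, a further Polycomb gene of the list, was not called (−0.21, edgeR adjusted p = 0.353). Of the 2 other inhibitors, Cdkn2d (the INK4 protein p19) was higher in basal cells, at 31.9 ± 2.56 against 21.9 ± 6.72 CPM (SD, n = 5 each, log2 fold change −0.54, edgeR adjusted p = 0.0192), a call that was lost without luminal library 2 (adjusted p = 0.0532) and with upper-quartile factors or library totals, and Cdkn1c (p57) was not called.

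Genes of DNA replication and mitosis were counted as well. Of 13 S-phase genes, 3 passed in each direction (median 0.08), with Mcm6 at a log2 fold change of 0.62 and Mcm7 at −1.31, both subunits of one helicase, and the replication licensing factor Cdt1 at −0.82. Cdt1 was no longer called without luminal library 2 or basal library 4 (edgeR adjusted p = 0.0538 and 0.05005) or with library totals. In each of these fits the count of S-phase genes higher in basal cells was 1. Of 13 mitosis genes, 10 were tested and 5 were higher in luminal cells (median 0.92), among them Aurka, a spindle pole kinase, at 6.40 ± 3.46 against 0.906 ± 0.407 CPM (SD, n = 5 each, log2 fold change 2.82, edgeR adjusted p = 5.32e-05) and Kif11, a spindle motor, at 0.72. The count was 3 without luminal library 2 and 1 when at least 10 counts were required in every library. Mki67, a widely used marker of cycling cells, was at 4.54 ± 4.22 CPM in luminal and 3.25 ± 3.69 CPM in basal libraries (SD, n = 5 each, edgeR adjusted p = 0.559).

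**Figure D4:**
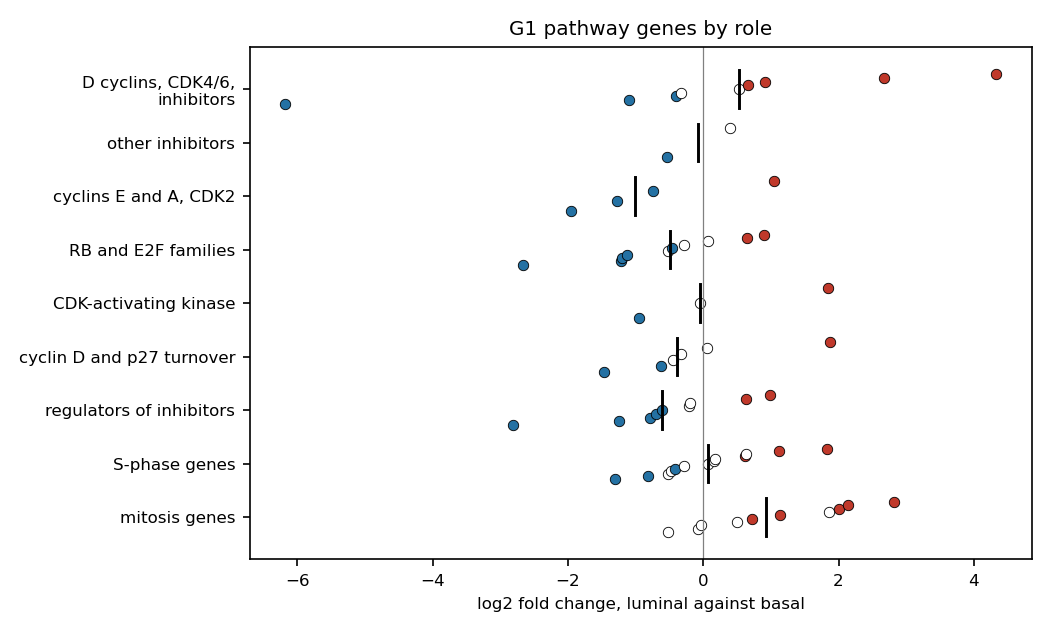
Log2 fold change, luminal against basal, of each tested gene of the G1 pathway by role, with the median of each list as a black line. Red points were higher in luminal and blue points in basal cells (edgeR adjusted p under 0.05), and open points were not called. The mitosis list had 5 genes higher in luminal and none in basal cells, and the RB and E2F families had 2 and 5.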

How the data were processed

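Total RNA of sorted luminal and basal cells (5 libraries each) was measured by RNA-seq. The authors deposited raw counts per gene, as whole numbers with Entrez identifiers and no normalization. Per the labels, libraries were made with the NEBNext Ultra II RNA kit, and the submitters' processing notes name cutadapt 4.2, Bowtie2 2.3.5.1 and mm10. The study's methods name the NEBNext Ultra RNA kit and another Bowtie2 version for its RNA-seq, and this difference was not resolved. The counting tool and its annotation are not given in the sources used here. Bowtie2 does not align across splice junctions, which can lower counts of genes with short exons. The study also describes fewer replicates per condition than the 5 libraries here, so its methods may not describe these libraries in full. That its steps hold for them was assumed and not checked.

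Symbols were matched for 24570 of 24594 genes. Genes were filtered with filterByExpr (minimum count 10, total 15), which left 14609 and dropped 9985, and scaled with TMM factors (0.892 to 1.17). Cell types were compared with edgeR 4.0.16 (quasi-likelihood test, R 4.3.3), cell type as the only term, with Benjamini-Hochberg adjustment over all genes tested and a threshold of 0.05. The SE was taken from the fold change and the F statistic of the test. The test was tried on simulated data. Nothing in the labels states that libraries are separate animals, so p-values measure only the spread between these libraries. Same-numbered libraries share the leading number of their description, which the labels do not explain. They were not treated as pairs. Alternatives were other scalings and filters, DESeq2 1.42.0, limma 3.58.1 (voom), a replicate block and leaving out each library.

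Exon and coding lengths are from GENCODE annotation of GRCm38. Exon length covers the merged exons of all annotated transcripts of a gene, whether or not these cells use them. Coding length is that of the longest coding sequence of a single transcript. Promoter windows are from RefSeq, GRCm38.p6, which held 12 windows for 8 of the 10 genes. Motifs were chosen after the sequences were seen. The 10 genes and all lists were chosen with earlier results of these data known. Besides the 10 genes, those named were, per pathway list, up to 2 in each direction with the largest called change (mean of 5 CPM or more in the group where they were higher), and the 3 most correlated with each D cyclin. LTO1, Tspan31, 9330179D12Rik, Ccnh, Cdkn1c, Ezh2, Bysl and the other overlapping genes, Mki67 and the lineage and stress markers were named outside this rule. An immune marker of the original list is not reported here.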

Additional observations from a re-analysis of the deposited data

Results flagged for a closer look

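Within a group of 5 libraries, a value was singled out where its gap to the nearest other library was a large part of the whole range (Dixon's ratio above 0.71). Of 116 groups tested, 7 met this, and 5.8 would be met by chance. None of the 10 genes' CPM values was among them. Luminal library 1 held 33.7 CPM of Cdkn2d, and the others 16.9 to 20.5 CPM. Luminal library 3 held 128 CPM of Cbx7, and the others 68.3 to 79.6 CPM. Luminal library 4 held 12.3 CPM of Aurka, and the others 3.11 to 5.77 CPM. Basal library 4 held 18.4 CPM of Kif11, and the others 13.5 to 14.4 CPM. In basal library 3, Cdkn2a made up 10.2% of the INK4 level per exon length, which rested on 3 counts, and 0 to 1.90% in the others. The TMM factor of basal library 1 was 0.892, and 0.943 to 0.960 in the others. The 20 most abundant genes took 9.19% of the counts of basal library 5, and 10.1 to 10.3% in the others.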

How the results depend on the processing

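No alternative reversed the direction of a recomputed luminal against basal fold change. With coding length, the luminal order of shares turned between Ccnd1 and Ccnd3 and between Cdkn2b and Cdkn2c. Of 160 recomputed fold changes of the 9 tested genes, 148 stayed on the same side of the threshold in the same direction. Cdk4 was −0.28 (adjusted p = 0.0878) with upper-quartile factors and −0.21 (0.197) with library totals, which moved the median of all genes from 0.05 to 0.17 and 0.24. Cdk6 was 0.60 (0.0519) with no filter, and Cdkn2c was 0.72 (0.0432) with library totals. Leaving out each library gave −0.47 to −0.33 for Cdk4, 0.48 to 0.82 for Cdk6, −0.45 to −0.25 for Cdkn1b and 0.37 to 0.72 for Cdkn2c. With coding length, an alternative added for the sums after seeing the data, the ratio of the summed D-cyclin level (luminal over basal) was 1.26, beside 1.82. The ratio was 0.80 for the kinases, 0.63 for CIP/KIP and 2.36 for INK4, beside 0.77, 0.63 and 2.77 per exon length. The CIP/KIP ranges overlapped with coding length. Per exon length they only just did not, at 70.2 to 127.23 in luminal and 127.24 to 197 CPM per kb in basal libraries. Shares with coding length were 45.7 and 2.91% for Ccnd1 (luminal, basal), 61.4% for basal Ccnd2, 53.7% for luminal Ccnd3, and 88.8 and 94.5% for Cdk4. Cdkn2b was 3.44 with voom, beside 2.67. When at least 10 counts were required in every library, Ccnd2 and Cdkn2b could not be tested.

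With the replicate number as a block, Ccnd1 was 4.29, Cdk4 −0.39 (adjusted p = 0.0348), Cdkn1b −0.33 (0.0546) and Cdkn2c 0.49 (0.215), and no call among the 9 genes changed. The block called 4740 genes in the luminal and 4539 in the basal direction, beside 4904 and 4558 without it. Deviations of same-numbered libraries correlated at −0.134 to 0.252, over 0.1 in 2 of 5, and 2 of 5 luminal libraries correlated best with their own number. Low counts limit Ccnd2 in luminal libraries, Cdkn2b in basal libraries and Cdkn2a in both.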

Other observations

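Luminal library 4 held the lowest luminal value for 5 of the 10 genes, Ccnd1, Ccnd2, Cdkn1a, Cdkn1b and Cdkn2a, and the highest for none. Basal library 4 held the lowest basal value for 4 of the 10, Ccnd2, Cdkn1a, Cdkn1b and Cdkn2b, and the highest for Cdk4 and Cdk6. Luminal library 2 held the highest luminal value for Cdk6, Cdkn1b, Cdkn2a and Cdkn2b, and the lowest for Ccnd3 and Cdkn2c. Luminal library 5 held the highest for Ccnd2, Ccnd3, Cdk4 and Cdkn2c, and the lowest for Cdk6 and Cdkn2b. Basal library 1 held the highest basal value for Ccnd3, Cdkn1a, Cdkn1b and Cdkn2b, and the lowest for Ccnd1 and Cdk6. Across luminal libraries, the coefficient of variation was 8.06% for Ccnd3, 28.1% for Ccnd1 and 39.7% for Cdkn1a, and across basal libraries it was 7.34, 9.96 and 12.4%. For Cdk4, Cdk6 and Cdkn2b the basal values varied more, with 6.77, 17.99 and 48.0% in luminal and 16.9, 35.7 and 86.8% in basal libraries. These differences in spread between the cell types were not tested.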
